A study of Mus musculus with 6 samples.

Results

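The genes described here are the ficolins, mannose-binding lectins, collectins and associated serine proteases of the lectin pathway of complement: *Fcna*, *Fcnb*, *Mbl1*, *Mbl2*, *Colec10*, *Colec11*, *Masp1* and *Masp2*. They were taken from the deposited count table by gene symbol, and all 8 were present among its 24061 symbols. Bulk RNA-seq was performed on CD45+CD11b+F4/80+ cells sorted as Lyve-1+ or Lyve-1- from the #4 (inguinal) mammary glands of FVB/N mice, after the inguinal lymph nodes had been taken out. Lyve-1 is a hyaluronan receptor that marks lymphatic endothelium and a subset of tissue macrophages. There were 3 libraries of each subset, each made from a pool of 4 mice. Replicate 1 came from 6-week-old mice, and the other two replicates from 10-week-old mice. The labels name no transgene or treatment, and a pool hides the differences between its mice, so that every error given here rests on pools and not on single mice.

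In the lectin pathway, soluble recognition molecules bind sugars or acetylated groups on microbes and damaged cells and carry serine proteases with them. The proteases then cleave C4 and C2, which form the enzyme that cleaves C3. Ficolins recognise their targets through a fibrinogen-like domain, while mannose-binding lectins and collectins use a C-type lectin domain, and in both families that domain sits on a collagen-like stem. Most of these proteins reach tissues through the blood from the liver, although some macrophages make ficolin A.

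The members come in pairs of related genes, and how far a pair is alike decides whether a read could be counted to the wrong partner. The coding stretch that holds the longest run of identical bases is therefore shown for the ficolins and for the mannose-binding lectins, 5′ to 3′ on the coding strand, with the identical run in capitals and 30 bases on either side. The sequences were read from the GENCODE M21 transcripts and placed on the GRCm38 genome by their exons. The ficolin stretches lie at chr2:25624952-25625030 (minus strand, exon 10 of 10 of *Fcna*) and chr2:28076686-28076764 (minus strand, exon 9 of 9 of *Fcnb*). The mannose-binding lectin stretches cross an intron, from exon 2 to exon 3 of *Mbl1* within chr14:41153702-41154543 (plus strand) and from exon 3 to exon 4 of *Mbl2* within chr19:30234113-30234973 (plus strand).
Fcna: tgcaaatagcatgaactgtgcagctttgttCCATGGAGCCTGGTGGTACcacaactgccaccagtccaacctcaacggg
Fcnb: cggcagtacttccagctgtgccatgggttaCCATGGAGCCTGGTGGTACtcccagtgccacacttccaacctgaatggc
Mbl1: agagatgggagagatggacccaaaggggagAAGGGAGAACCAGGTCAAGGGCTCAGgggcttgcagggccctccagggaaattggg
Mbl2: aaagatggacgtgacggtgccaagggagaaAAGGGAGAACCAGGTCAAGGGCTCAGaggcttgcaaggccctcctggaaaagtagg

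The identical run was 19 bases in the ficolins, whose coding sequences matched at 68.8% of 940 aligned bases. It was 26 bases in the mannose-binding lectins, at 65.8% of 707 aligned bases, 18 bases in *Colec10* and *Colec11* and 14 bases in *Masp1* and *Masp2*. The reads were paired and 50 bases long, and 0 of the 28 pairs of members shared a stretch of 50 bases in their transcripts. A full-length read that matched without error therefore belonged to 1 member. Overlap on the opposite strand was a separate limit. Of the 3307 exonic bases of *Masp2*, 1817 also lie in *Tardbp*, and 90 bases of *Fcna* lie in the antisense RNA *Fcnaos*. The library kit keeps the strand, but the strand setting of the counting is not given in the sources used here.

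Library totals ran from 6478007 to 21406839 counts, and a gene at 0 may have been present at up to 3 counts, between 0.144 and 0.437 CPM in these libraries, for counting error alone. CPM are counts scaled to a common library size, here with the trimmed mean of M-values (TMM). *Lyve1* itself had at most 75 counts in a Lyve-1- library and at least 4735 in a Lyve-1+ library, so each library followed its label. The 7 macrophage markers analysed had counts in every library and summed to between 3672 and 4908 CPM in the Lyve-1- libraries and between 4710 and 5612 CPM in the Lyve-1+ libraries. Markers of lymphatic endothelium, another known source of *Lyve1*, summed to 14.6 to 37.5 CPM and 13.3 to 40.4 CPM, and *Ccl21a* was at 0 in all 6 libraries. Markers of other endothelium were not examined. The libraries differed in signal from the olfactory receptor family. Of 1112 olfactory receptor genes, Lyve-1- replicate 3 had counts for 651 and Lyve-1+ replicate 1 for 370, and the other 4 libraries had counts for 4 to 134.

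*Fcna* was the member that carried the signal. It encodes ficolin A, a plasma ficolin of the mouse that is also made by macrophages of the liver and spleen, and lies at chromosome 2, 25624666 to 25628030 (minus strand). Replicates 1, 2 and 3 of the Lyve-1- subset had 192, 30 and 51 raw counts, and those of the Lyve-1+ subset had 10249, 4856 and 2426. These counts correspond to 16.1, 2.67 and 7.43 CPM in Lyve-1- cells and 781, 233 and 306 CPM in Lyve-1+ cells. The lowest Lyve-1+ library was therefore far above the highest Lyve-1- library, and the groups did not overlap.

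The mean level of *Fcna* across 3 pools was 8.74 ± 6.83 CPM (SD, n = 3) for Lyve-1- cells and 440 ± 298 CPM (SD, n = 3) for Lyve-1+ cells. edgeR's quasi-likelihood model gave a log2 fold change of 5.64 ± 0.80 (SE), which ranked 9 of the 13348 genes tested from the top. By mean CPM, *Fcna* ranked 303 in Lyve-1+ cells and 8844 in Lyve-1- cells. The members were chosen with this contrast known, so these values describe the gene and no p is given for them. Because the RNA came from whole sorted populations, fewer cells making *Fcna* and less *Fcna* RNA per cell cannot be told apart.

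**Figure D1:**
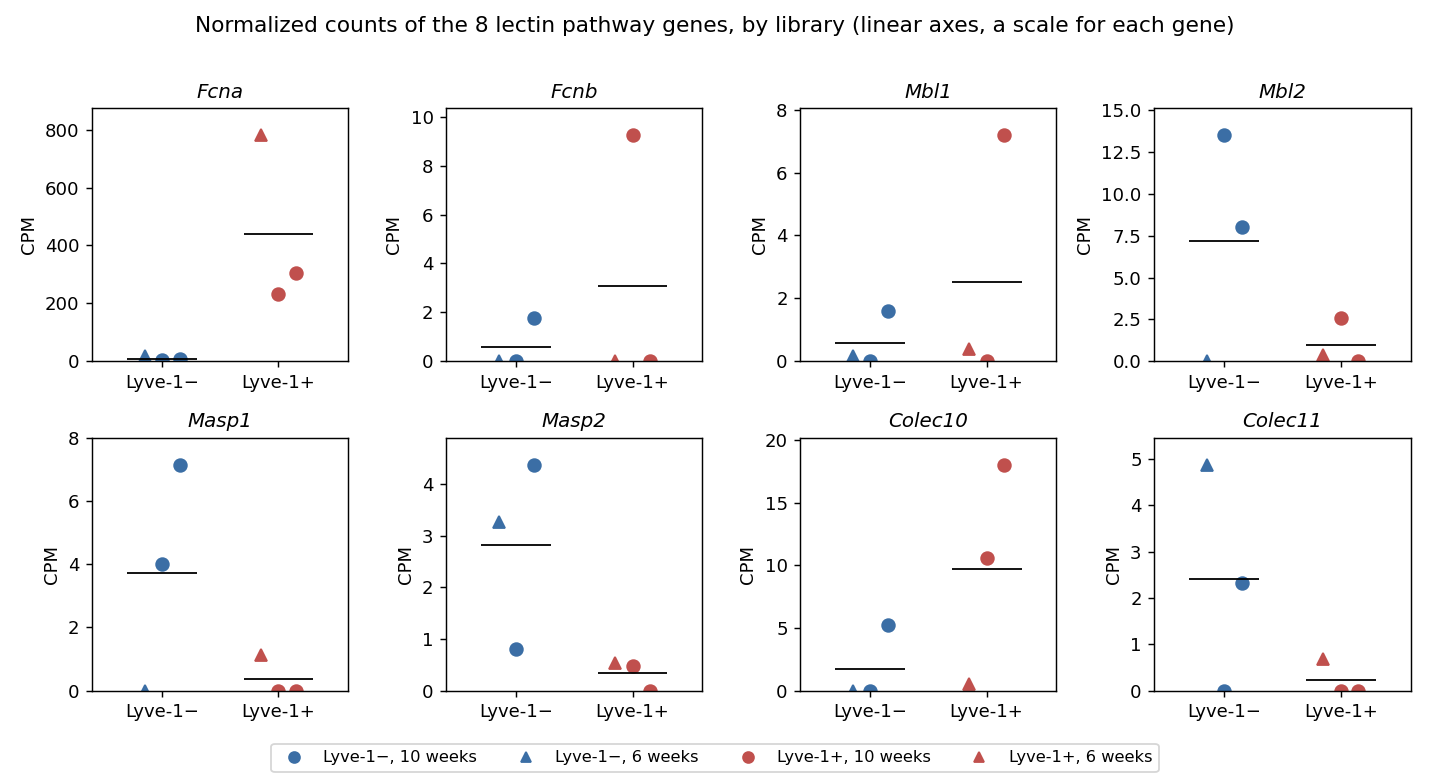
Normalized counts (CPM, linear axes with a scale for each gene) of the 8 genes in the Lyve-1- and Lyve-1+ libraries, with triangles for 6-week pools, circles for 10-week pools and a line for the mean of each subset. *Fcna* lies between 233 and 781 CPM in the Lyve-1+ libraries against at most 16.1 CPM in the Lyve-1- libraries, while the other 7 genes stay at or below 18.0 CPM in every library.

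Counts of a gene past a threshold were read against all genes tested. The stricter rule asked for a log2 fold change of size 1 to 10 at an adjusted p below 0.01. It called 15 of the 13348 genes (0.112%), of which 14 were higher in Lyve-1+ cells (0.105%), and 0 of the 4 members tested. At an adjusted p under 0.05 with no limit on the fold change, the higher genes were 60 (0.45%) and included *Fcna*, and the lower genes were 24 (0.18%) and included no member. Libraries that did not overlap were common, with 1044 genes (7.82%) higher and 867 genes (6.5%) lower in Lyve-1+ cells. The members tested were *Fcna*, *Mbl2*, *Masp1* and *Colec10*, and the other 4 failed the filter on low counts. Nothing is read from these counts about the members, since the same contrast chose them.

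The difference in *Fcna* was present at each age. At 6 weeks, with 1 library of each subset, it was 781 CPM in Lyve-1+ cells against 16.1 CPM in Lyve-1- cells. In the 10-week libraries alone, with 2 of each subset, the contrast was 5.77 ± 0.56 (SE) on the log2 scale. Removing the libraries one at a time gave values from 4.96, when Lyve-1+ replicate 1 was removed, to 6.47, when Lyve-1- replicate 1 was. The log2 fold change was 4.82 ± 0.79 (SE) without Lyve-1- replicate 3 and Lyve-1+ replicate 1, the libraries with the most olfactory receptor genes counted.

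**Figure D2:**
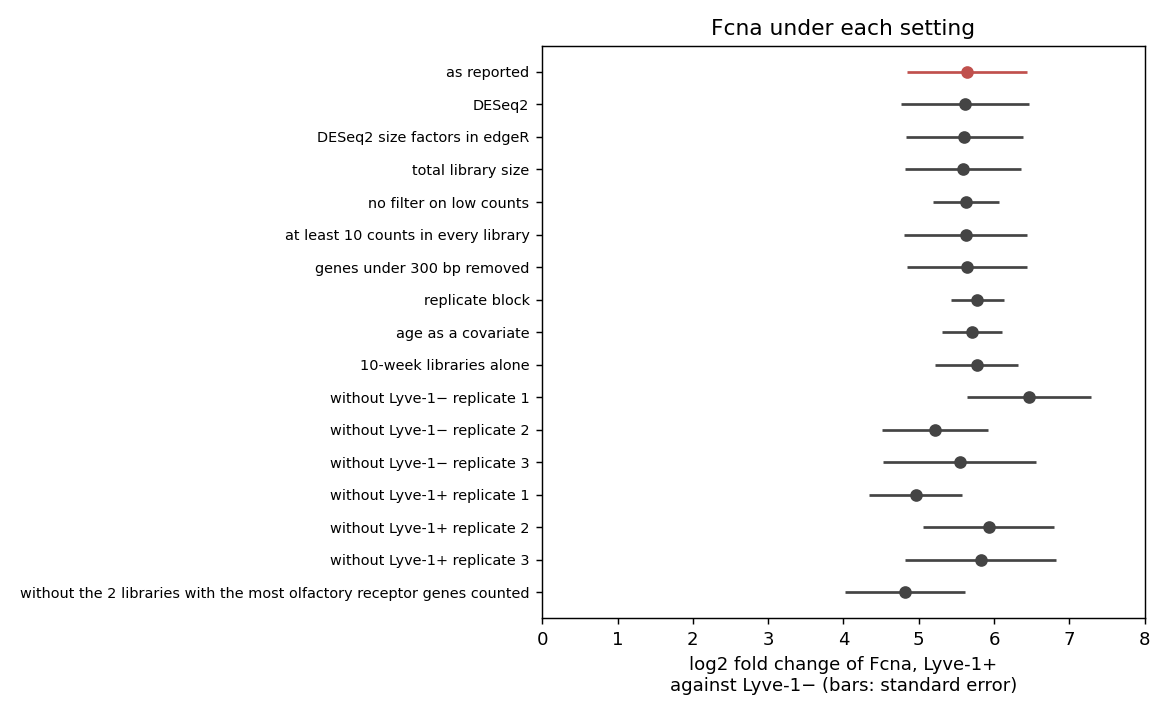
Log2 fold change of *Fcna* in Lyve-1+ against Lyve-1- cells (x axis, bars are standard errors) as reported and under each alternative way of fitting or choosing libraries (y axis). Every value lies between 4.82 and 6.47.

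*Fcna* was also compared with *Lyve1*, the gene of the sorting marker. There were 0.332, 0.295 and 0.512 *Fcna* counts per *Lyve1* count in Lyve-1+ replicates 1, 2 and 3, a narrow range next to the spread of the *Fcna* level itself. The ratios in the Lyve-1- libraries were 11.3, 0.4 and 1.0, the first of them resting on 17 *Lyve1* counts. Of all counts on the 8 members, *Fcna* took 99.5%, 91.0% and 92.4% in the Lyve-1+ libraries and 66.0%, 12.7% and 19.6% in the Lyve-1- libraries.

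*Alb*, which encodes albumin and marks hepatocytes, did not separate the subsets. It had 6275, 6180 and 106 counts in Lyve-1- replicates 1, 2 and 3 and 809, 18 and 7520 counts in Lyve-1+ replicates 1, 2 and 3, or between 0.862 and 947 CPM. Its log2 fold change was -0.11 ± 2.39 (SE). The 18 hepatocyte markers followed the same order as *Alb* at the extremes, from a summed 26.8 CPM in Lyve-1+ replicate 2, where 10 of them had a count, to 1690 CPM in Lyve-1+ replicate 3, where 16 did. No hepatocyte marker passed an adjusted p under 0.05 in the edgeR test between the subsets, with 4 higher and 11 lower among the 15 tested.

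*Fcna* did not track this liver signal. It was at 233 CPM in Lyve-1+ replicate 2, where *Alb* was at 0.862 CPM, and at 2.67 CPM in Lyve-1- replicate 2, where *Alb* was at 549 CPM. Pearson's r between the log2 CPM of *Fcna* and *Alb* was -0.247 over the 6 libraries, a description over points that share library depth. Kupffer cells are the liver macrophages known for *Fcna*, and the 7 Kupffer cell markers summed to 96.1 to 176 CPM in Lyve-1- and 332 to 568 CPM in Lyve-1+ libraries. Of these, *Timd4*, a phosphatidylserine receptor shared by many resident macrophages, made up most and was higher in Lyve-1+ cells (log2 fold change 2.02 ± 0.32 SE, adjusted p = 0.012 by edgeR). *Cd5l*, an inhibitor of apoptosis made by tissue macrophages, had 2.44, 0 and 6.997 CPM in Lyve-1- and 70.3, 7.47 and 37.5 CPM in Lyve-1+ replicates 1, 2 and 3, so its libraries did not overlap (log2 fold change 3.63 ± 1.33 SE, adjusted p = 0.456 by edgeR). *Vsig4*, a complement receptor, had at most 0.875 CPM in Lyve-1- libraries and 19.6, 5.80 and 0.252 CPM in Lyve-1+ replicates 1, 2 and 3 (4.38 ± 2.32 SE, adjusted p = 0.752 by edgeR). All 6 markers tested had a positive fold change, as *Fcna* did, and 1 passed. *Clec4f*, the defining marker of Kupffer cells, was at 0 in 3 libraries, including Lyve-1+ replicate 3, and at most 2.77 CPM in the others. The part of these markers in the *Fcna* level was not tested.

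**Figure D3:**
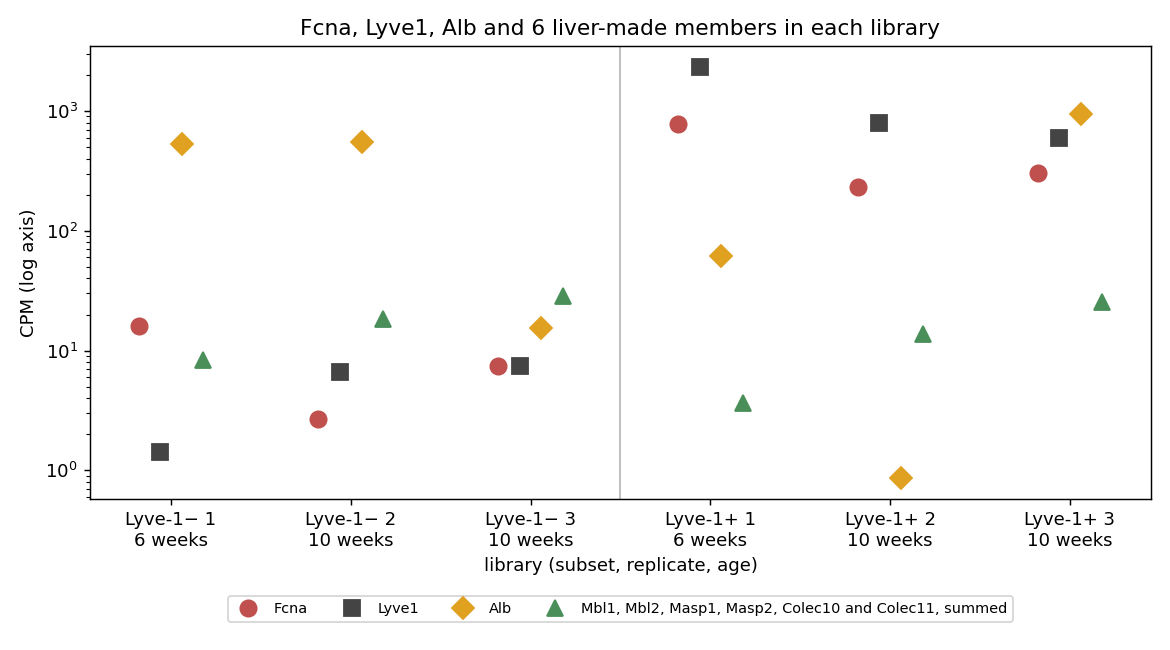
CPM (log axis) of *Fcna*, *Lyve1*, *Alb* and the sum of 6 liver-made members in each of the 6 libraries. *Fcna* and *Lyve1* are high in the 3 Lyve-1+ libraries, whereas *Alb* runs from 0.862 to 947 CPM within the Lyve-1+ subset.

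The ages were compared, 10 weeks against 6 weeks, in a model that also held the subset. *Fcna* was lower at 10 weeks in both subsets, with 233 and 306 CPM against 781 CPM in Lyve-1+ cells and 2.67 and 7.43 CPM against 16.1 CPM in Lyve-1- cells. Its log2 fold change was -1.62 ± 0.34 (SE) and did not pass (edgeR adjusted p = 0.232). Over 13 alternatives the adjusted p ran from 0.00111 to 0.9996 and was under 0.05 in 6, DESeq2 among them with 0.0196, while the log2 fold change stayed between -1.96 and -1.38. The value without Lyve-1+ replicate 3 was -1.74 (edgeR adjusted p = 0.00111), and that without Lyve-1+ replicate 1, the only Lyve-1+ pool at 6 weeks, was -1.69 (edgeR adjusted p = 0.474). Each subset had 1 library at 6 weeks, and the members were chosen with this value known.

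In all, 3 of 13348 genes (0.0225%) passed an adjusted p under 0.05 for age, and 0 of the 4 members tested did, with 1 of them, *Fcna*, at an unadjusted p under 0.05 and past the adjusted p in DESeq2. The 3 genes, named after their values were seen, were *Ehf*, *Mreg* and *Fscn1*, all higher at 10 weeks. There were 444 genes at an unadjusted p under 0.05, and DESeq2 called 35. The term for a subset difference that varies with age passed for 1 gene (0.00749%), *Lyve1*, with 613 genes at an unadjusted p under 0.05 and 41 called by DESeq2. Its 6-week side is 1 pool per subset, with the spread taken from the 10-week pools alone, so age and the variation of a single pool cannot be told apart. For *Fcna* this interaction was 0.17 ± 0.73 in log2 units (SE, adjusted p = 1.0 by edgeR), an estimate too wide to say whether its age difference was alike in both subsets.

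*Fcnb* encodes ficolin B, the ficolin of bone marrow myeloid cells and neutrophils, and lies on chromosome 2, from 28076378 to 28084885 (minus strand). It had 0, 0 and 12 counts in Lyve-1- replicates 1, 2 and 3 and 0, 193 and 0 in Lyve-1+ replicates 1, 2 and 3. A level of 9.25 CPM in Lyve-1+ replicate 2 and 1.75 CPM in Lyve-1- replicate 3 was thus all of its signal, and the subsets overlapped at 0. *Fcnb* failed the filter on low counts and was not tested.

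The signal of *Fcnb* was set beside markers of the cells known for it. *Elane* and *Prtn3*, proteases of neutrophil and monocyte precursors, had at most 6 counts in any library, and the 5 precursor markers summed to 0 to 8.89 CPM in Lyve-1- and 1.01 to 7.47 CPM in Lyve-1+ libraries. The 9 neutrophil markers analysed summed to 77.0 to 146 CPM and 99.6 to 513 CPM, with the highest sum in Lyve-1+ replicate 3, where *Fcnb* had no count. *S100a8*, *S100a9* and *Cxcr2* were higher in every Lyve-1+ library than in any Lyve-1- library, as were 7.82% of all genes tested. None passed the test (lowest edgeR adjusted p = 0.234). Of the 7 neutrophil markers tested, 5 had a positive log2 fold change and 2 a negative one, *Retnlg* (-1.08) and *Ltf* (-1.13). Whether these cells have a part in the *Fcnb* counts was not tested.

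The mannose-binding lectins were low and uneven. *Mbl1*, which encodes MBL-A (chromosome 14, 41151458 to 41159601, plus strand), had 2, 0 and 11 counts in Lyve-1- replicates 1, 2 and 3 and 5, 0 and 57 in Lyve-1+ replicates 1, 2 and 3. *Mbl2*, which encodes MBL-C (chromosome 19, 30232942 to 30239687, plus strand), had 0, 152 and 55 counts and 5, 54 and 0 counts. Lyve-1- replicate 2 was thus highest for *Mbl2* and had no *Mbl1*, and Lyve-1+ replicate 3 was highest for *Mbl1* and had no *Mbl2*.

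In CPM, *Mbl2* was 7.17 ± 6.79 (SD, n = 3) in Lyve-1- and 0.989 ± 1.40 (SD, n = 3) in Lyve-1+ cells. The fitted log2 fold change was -2.83 ± 2.40 (SE), with overlapping libraries, and ran from -5.12 to -1.57 over the alternatives. *Mbl1* failed the filter. *Mbl2* did not follow *Alb*: it had 0 counts in Lyve-1- replicate 1 and Lyve-1+ replicate 3, where *Alb* had 6275 and 7520 counts, and had 54 counts in Lyve-1+ replicate 2, where *Alb* had 18. *Mbl1* differed from it in this, with its highest value, 57 counts, in the library highest for *Alb* (Lyve-1+ replicate 3) and 0 in the library lowest for it (Lyve-1+ replicate 2), but also 0 in Lyve-1- replicate 2, where *Alb* had 6180.

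*Colec10* and *Colec11* encode the collectins CL-L1 and CL-K1, which join into mixed molecules and carry the same proteases. *Colec10* (chromosome 15, 54410774 to 54466358, plus strand) had 0, 0 and 36 counts in Lyve-1- replicates 1, 2 and 3 and 7, 221 and 143 in Lyve-1+ replicates 1, 2 and 3. Its 2 highest libraries were the 10-week Lyve-1+ pools, at 10.6 and 18.0 CPM, and the 6-week Lyve-1+ pool at 0.533 CPM lay below Lyve-1- replicate 3 at 5.25 CPM. The fitted log2 fold change was 2.48 ± 2.17 (SE). Without Lyve-1- replicate 3, the only Lyve-1- library with a count, it was 9.98, a value that rests on libraries at 0 and is not a measure of size.

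*Colec11* (chromosome 12, 28594173 to 28623377, minus strand) ran the other way, with 58, 0 and 16 counts in Lyve-1- replicates 1, 2 and 3 and 9, 0 and 0 in Lyve-1+ replicates 1, 2 and 3. It had no count in Lyve-1+ replicates 2 and 3, the libraries with the most *Colec10*. The subsets overlapped, and *Colec11* failed the filter.

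Of the proteases, *Masp1* encodes MASP-1, which starts the cascade, and through other splice forms MASP-3. The gene (chromosome 16, 23449417 to 23520815, minus strand) had 0, 45 and 49 counts in Lyve-1- replicates 1, 2 and 3 and 15, 0 and 0 in Lyve-1+ replicates 1, 2 and 3. The 10-week Lyve-1- pools were high and the 10-week Lyve-1+ pools at 0, while at 6 weeks the order was the opposite. Its log2 fold change of -3.24 ± 2.87 (SE) was -9.02 in the 10-week libraries alone and -8.44 without Lyve-1+ replicate 1, where every Lyve-1+ library left was at 0. Gene counts cannot separate the splice forms.

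*Masp2* encodes MASP-2, the protease that cleaves C4 and C2, and lies on chromosome 4, from 148602554 to 148615499 (plus strand). It had 39, 9 and 30 counts in Lyve-1- replicates 1, 2 and 3 and 7, 10 and 0 in Lyve-1+ replicates 1, 2 and 3, or 3.28, 0.80 and 4.37 CPM and 0.53, 0.48 and 0 CPM. By CPM the Lyve-1+ libraries were all below the Lyve-1- libraries, an order that 6.5% of all genes tested also had. The raw counts overlapped, since the smallest Lyve-1- count was 9 and the largest Lyve-1+ count was 10. With so few counts the order by CPM is not read as a difference. *Masp2* failed the filter and was not tested. *Tardbp*, with which it shares exonic bases on the opposite strand, had 118.5 ± 12.9 CPM (SD, n = 3) in Lyve-1- and 147 ± 7.22 CPM (SD, n = 3) in Lyve-1+ cells, without overlap and higher in Lyve-1+ cells, by 0.31 on the log2 scale (edgeR adjusted p = 1.0). Reads of *Tardbp* counted to *Masp2* cannot be told apart from *Masp2* itself where the strand setting is not known.

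Levels can be compared between genes only per length, as CPM divided by exonic kilobases. In Lyve-1+ cells the order was *Fcna* at 320 ± 217 CPM per kb (SD, n = 3), *Fcnb* at 2.30 ± 3.99, *Colec10* at 2.12 ± 1.91, *Mbl1* at 1.61 ± 2.57, *Mbl2* at 0.908 ± 1.28, *Colec11* at 0.141 ± 0.244, *Masp2* at 0.102 ± 0.0888 and *Masp1* at 0.0387 ± 0.0671. Only the step from *Fcna* to the rest was larger than the spread between pools, since the lowest *Fcna* value was 169 and the highest value of any other member 6.91 CPM per kb. In Lyve-1- cells *Mbl2* at 6.59 ± 6.24 and *Fcna* at 6.36 ± 4.97 CPM per kb (SD, n = 3) came first and overlapped, and the other 6 had means between 0.376 and 1.48 CPM per kb.

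The 7 members other than *Fcna* were set beside the olfactory receptor genes, whose counts per exonic kilobase give the density of signal over a large gene family. Whether macrophages use any of these genes was not examined. That density is taken over all 1112 genes, those at 0 included, so olfactory receptor genes with a count lay above it on average. In Lyve-1- replicate 3 all 7 members had counts, at 4.98 to 50.5 raw counts per kb, where the olfactory receptor density was 2.65. In Lyve-1+ replicate 1, where 6 had counts, those 6 lay at 1.53 to 5.55 per kb against 1.02. Over their summed length, zeros included, the 7 members had 8.95 and 2.06 raw counts per kb in these libraries, in that order. The other 4 libraries had counts for 2 to 4 of the 7 members, and 3 of these libraries had olfactory receptor densities of 0.0343 to 0.0931 per kb. In the fourth, Lyve-1+ replicate 2, *Fcnb*, *Mbl2* and *Colec10* had 144, 49.6 and 48.2 raw counts per kb and *Masp2* 3.02, against an olfactory receptor density of 1.17. Over their summed length the 7 members had 4.24 and 8.82 raw counts per kb in Lyve-1- replicates 1 and 2, where that density was 0.0343 and 0.0931. They had 20.5 and 8.57 in Lyve-1+ replicates 2 and 3, where it was 1.17 and 0.0520. How far the signal on olfactory receptor genes makes up the low members was not tested.

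**Figure D4:**
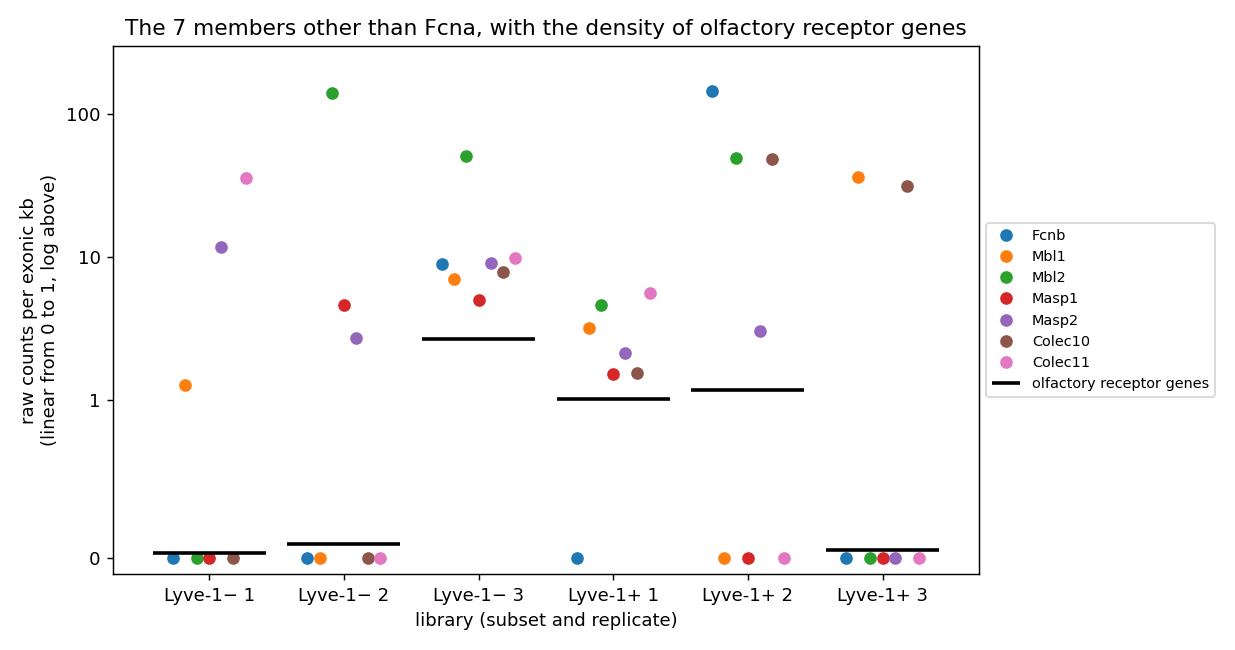
Raw counts per exonic kilobase (linear from 0 to 1, log above) of the 7 members other than *Fcna* in each library. The black bar is the density over all 1112 olfactory receptor genes, those at 0 included. Counts are spread over all 7 members in Lyve-1- replicate 3, where that density is 2.65, and sit on a few members in libraries such as Lyve-1+ replicate 3, where it is 0.052.

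The 6 liver-made members (*Mbl1*, *Mbl2*, *Masp1*, *Masp2*, *Colec10* and *Colec11*) together had 99, 206 and 197 counts in Lyve-1- replicates 1, 2 and 3 and 48, 285 and 200 in Lyve-1+ replicates 1, 2 and 3. For every 100 *Alb* counts this was 1.58, 3.33 and 186 in the Lyve-1- libraries and 5.93, 1583 and 2.66 in the Lyve-1+ libraries. The ratio was thus low where *Alb* was high and high where *Alb* was low, and their summed counts did not scale with *Alb*.

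Other complement genes and proteins related to them were read from 7 lists with 54 genes, of which 40 passed the filter. Not all are complement genes, since 10 of the 40 come from the list of other proteins with a fibrinogen-like domain. Of the 40, 33 had a positive and 7 a negative log2 fold change in Lyve-1+ cells, with a median of 1.24. Over all 13348 genes, 6594 were positive and 6754 negative, with a median of -0.01. At an adjusted p under 0.05, 3 of the 40 were higher and 0 lower (0.45% and 0.18% of all genes). The study had named complement genes for this contrast in the same libraries, so the count is not independent evidence of its direction. Libraries did not overlap for 10 of the 40 genes higher and 1 lower, beside 7.82% and 6.5% of all genes, and the same limit holds.

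The 3 genes were *Colec12*, *C4b* and *C1qa*. *Colec12* encodes a membrane-bound collectin that works as a scavenger receptor, and had 57.6, 41.8 and 42.3 CPM in Lyve-1- replicates 1, 2 and 3 and 586, 358 and 323 CPM in Lyve-1+ replicates 1, 2 and 3. Its log2 fold change was 3.16 ± 0.32 (SE, adjusted p = 0.000524 by edgeR), and it passed in all 16 alternative fits (edgeR and DESeq2 adjusted p at most 0.0435). Per exonic length its level in Lyve-1+ cells was 48.4 ± 16.4 CPM per kb (SD, n = 3), beside 2.12 ± 1.91 for *Colec10* and 0.141 ± 0.244 for *Colec11*.

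*C4b* encodes C4, the substrate of MASP-2, and had 89.1 ± 53.3 CPM (SD, n = 3) in Lyve-1- and 805 ± 375 CPM (SD, n = 3) in Lyve-1+ cells. The log2 fold change was 3.17 ± 0.49 (SE, adjusted p = 0.0199 by edgeR). Leaving out Lyve-1- replicate 1 gave an edgeR adjusted p of 0.279, and leaving out Lyve-1+ replicate 3 gave 0.0773. It was 0.0552 with the replicate number as a block and 0.335 in the 10-week libraries alone, within a range of 2.09e-19 to 0.335 over the alternatives. *C4a* is a near copy of *C4b*, and how reads that fit both were counted is not known, so the split between them is uncertain. *C2*, the other substrate, had a log2 fold change of 1.97 ± 0.88 (SE, adjusted p = 0.602 by edgeR) and its libraries did not overlap.

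Later in the cascade, *C3* differed by less than the spread between pools, at 397 ± 13.8 CPM and 447 ± 228 CPM (SD, n = 3 each). The largest fitted values were 3.49 ± 2.78 for *C8b* (SE), which rests on few counts, and 3.23 for *C6* (standard error 0.83, edgeR adjusted p = 0.151), both parts of the membrane attack complex. *C7*, of the same complex, had 2.03 ± 2.48 (SE). *C8a*, also of the complex, went the other way, at -1.93 ± 2.58 (SE), and *Hc* had 0.13 ± 1.32 (SE). *C8g* and *C9* failed the filter. *C8g* had 0, 46 and 36 counts in Lyve-1- and 2, 12 and 0 in Lyve-1+ replicates 1, 2 and 3. *C9* had counts, 32 of them, in Lyve-1- replicate 3 only. *C6* had 12.5, 0.888 and 7.43 CPM in Lyve-1- and 111, 56.5 and 28.2 CPM in Lyve-1+ replicates 1, 2 and 3. In this list of 11 genes, 9 were tested, 8 with a positive and 1 with a negative log2 fold change, and 1 passed.

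C1q, the recognition molecule of the classical pathway, has a collagen-like stem as the lectins do. *C1qa* had 217 ± 66.8 CPM in Lyve-1- and 687 ± 296 CPM in Lyve-1+ cells (SD, n = 3 each), with a log2 fold change of 1.66 ± 0.33 (SE, adjusted p = 0.0376 by edgeR). Leaving out Lyve-1- replicate 3 gave an edgeR adjusted p of 0.185, leaving out Lyve-1+ replicate 1 gave 0.102 and leaving out both gave 0.63. It was 0.187 in the 10-week libraries alone, within a range of 1.41e-05 to 0.63. *C1qb* and *C1qc*, the partner chains, had log2 fold changes of 1.30 and 1.66 and did not pass (edgeR adjusted p = 0.0689 and 0.0697), although their libraries did not overlap. None of the 4 protease genes of this pathway passed. *C1ra* had 1.77 ± 0.72 (SE) and *C1s2*, with 269 counts in 3 libraries, 1.98 ± 2.74 (SE), while their near copies *C1rb* and *C1s1*, with which reads may be shared, had 0.36 ± 1.67 (SE) and 0.12 ± 0.63 (SE). All 7 genes of the list were tested, all had a positive sign and 1 passed.

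No inhibitor of the lectin pathway proteases passed among the 3 tested of 5. *Serping1*, the C1 inhibitor, which also blocks MASP-1 and MASP-2, had a log2 fold change of 0.55 ± 0.53 (SE), *Tfpi* had 0.92 ± 0.57 (SE) and *Serpinc1*, antithrombin, had -1.43 ± 1.73 (SE). In the alternative pathway, which MASP-3 feeds by cleaving pro-factor D, 0 of 3 passed, with 1.59 for *Cfb*, 1.27 for *Cfd* and 0.27 for *Cfp*. *Cfd* itself had at most 7.57 CPM in any library.

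Among the other soluble recognition proteins, *Ptx3* (-0.49) and *Pglyrp1* (0.13) did not pass, and 4 of the 7 genes in that list failed the filter. Of the 6 surface proteins that bind collectins, ficolins or C1q, *Calr* and *Lrp1* had the highest levels and *Megf10*, at 0 in 4 libraries, failed the filter. *Calr*, calreticulin, had 1478 ± 210 CPM in Lyve-1- and 1991 ± 323 CPM in Lyve-1+ cells (SD, n = 3 each), and *Lrp1*, its partner receptor, had 898 ± 392 CPM and 818 ± 223 CPM. The largest log2 fold changes of this list were 2.62 for *Cr2*, 1.28 for *Scarf1*, -0.44 for *Cd93* and 0.43 for *Calr*, and 0 of the 5 tested passed. The fibrinogen-like domain of the ficolins is shared by the angiopoietins and tenascins, and 0 of 10 of these passed, led by *Tnn* (-2.12), *Angpt2* (1.74), *Angpt1* (1.54) and *Angptl2* (1.31).

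**Figure D5:**
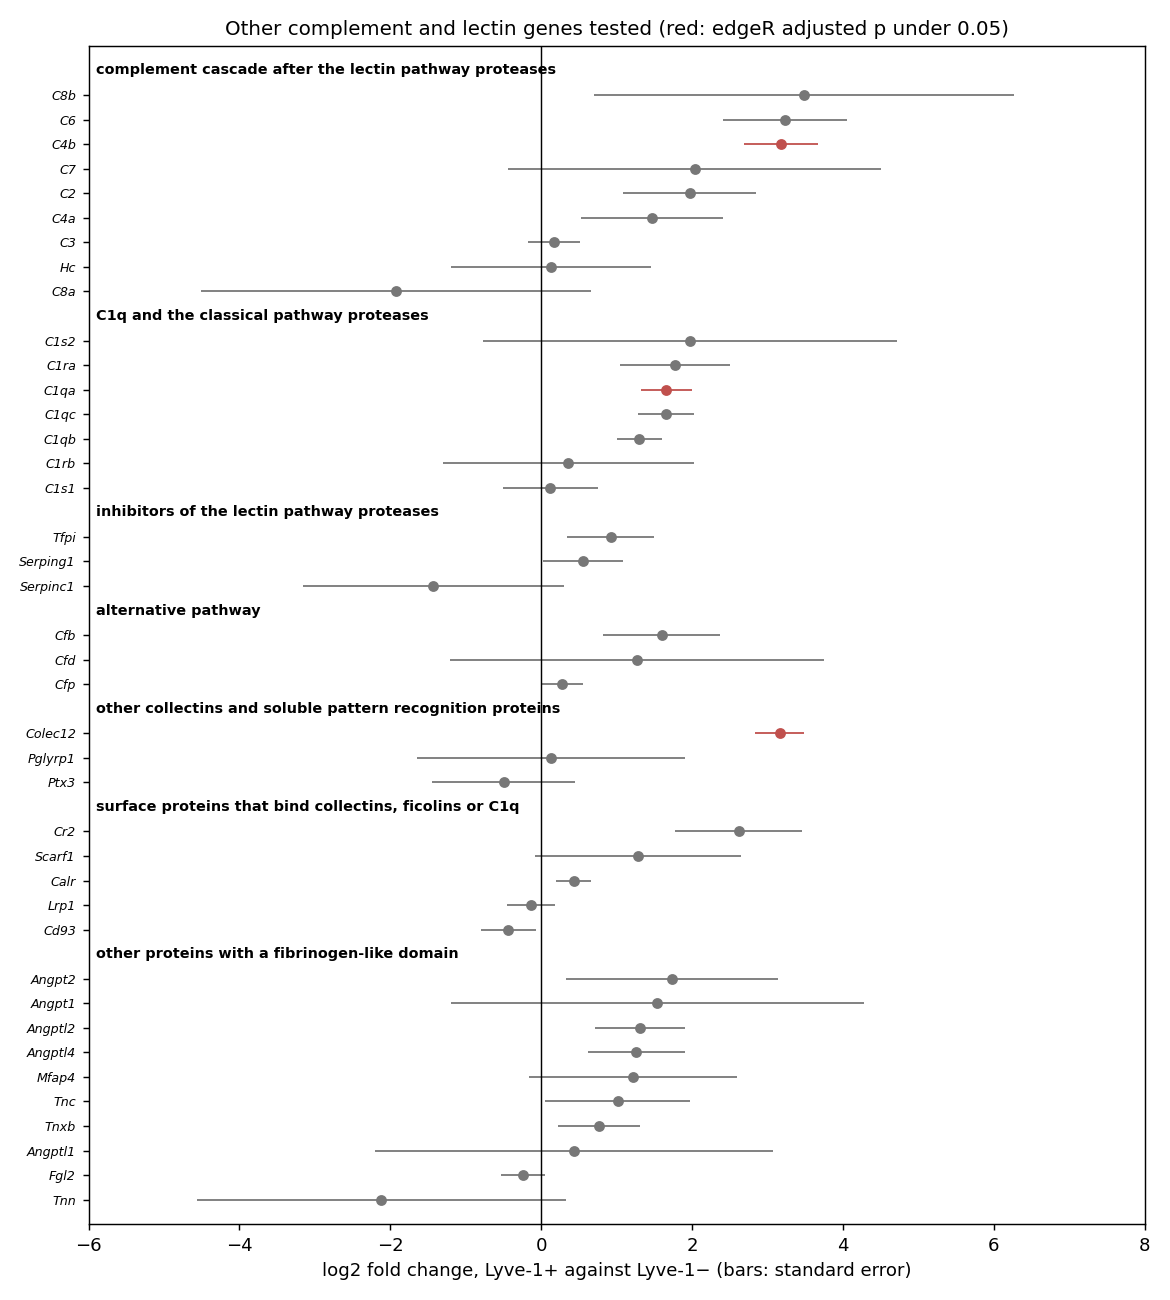
Log2 fold change (x axis, bars are standard errors) of the 40 tested genes of 7 complement and lectin lists in Lyve-1+ against Lyve-1- cells, grouped by list, with red for an edgeR adjusted p under 0.05. *Colec12*, *C4b* and *C1qa* are red, and 33 of the 40 points lie above 0.

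Markers of other cells were set beside these genes. The 9 fibroblast markers, of a cell type that makes *C4b*, *C3* and *C1ra*, summed to 215 to 374 CPM in Lyve-1- and 403 to 986 CPM in Lyve-1+ libraries, and all 9 had counts in every library. None passed, with 7 positive log2 fold changes and 2 negative ones, *Col14a1* (-0.37) and *Pi16* (-0.08). *Lum* and *Pdgfra* were higher in Lyve-1+ cells without overlap (log2 fold change 2.07 and 2.02), as were 7.82% of all genes tested. The part of fibroblasts in the complement genes was not tested. Monocyte markers summed to 477 to 1282 and 351 to 1012 CPM, mammary epithelial markers to 40.2 to 278 and 51.5 to 90.7 CPM, and adipocyte markers to 1.51 to 6.27 and 2.14 to 4.65 CPM, with 0 genes passing in each list and ranges that overlapped. Of the 7 monocyte markers tested, 3 had a positive and 4 a negative log2 fold change. All 6 mammary epithelial markers tested had a negative one, with a median of -1.29. Among them *Epcam* was lower in Lyve-1+ cells without overlap (log2 fold change -1.64, edgeR adjusted p = 0.588), as were 6.5% of all genes tested. Over the 13 lists in which 0 genes passed edgeR, 14 of the 77 genes tested had an unadjusted p under 0.05. DESeq2 called 4 of these 77, namely *S100a9*, *Lum*, *Pdgfra* and *Csf1r*. Over all 13348 genes tested, 1027 had an unadjusted p under 0.05 in edgeR, and DESeq2 called 256.

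The genes most like *Fcna* across the 6 libraries, by Pearson's r of log2 CPM, were *Fam43a* (0.994), *Ednrb* (0.993), *Hspa5* (0.992), *Itm2b* (0.991), *Cd209f* (0.991) and *Lrp6* (0.990). These are descriptions over points that share library depth and the subset difference. *Ednrb*, an endothelin receptor, had 64.8, 25.1 and 48.7 CPM in Lyve-1- and 968, 314 and 612 CPM in Lyve-1+ replicates 1, 2 and 3. *Cd209f*, a C-type lectin of the DC-SIGN family, had 55.6, 18.0 and 21.1 CPM and 807, 251 and 447 CPM. Both were highest in the 6-week Lyve-1+ pool and lowest in Lyve-1- replicate 2, as *Fcna* was. *Hspa5*, an abundant chaperone of the endoplasmic reticulum, shared the shape but with a log2 fold change of 0.55.

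The other members that passed the filter matched genes that were as sparse as they were. For *Mbl2* these were *Cdkl4*, *Astl* and *Gabpb2* (Pearson's r 0.997, 0.995 and 0.988), for *Masp1* *Prg4*, *Atcay* and *Insl6* (0.999, 0.998 and 0.997) and for *Colec10* *H2afy2*, *Trat1* and *Gja4* (0.999, 0.997 and 0.990). All of them except *Gabpb2*, at 97.1 to 148 CPM, were at 0 in at least 2 libraries, so likeness here rests on shared zeros. Between the members themselves, r with *Fcna* was -0.581 for *Mbl2*, -0.552 for *Masp1* and 0.491 for *Colec10* over the 6 libraries.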

How the data were processed

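RNA was sequenced from 6 libraries of sorted mammary gland macrophages, each a pool of 4 mice. HISAT2 2.0.2 was used by the authors to align paired reads of 50 bp with mm10 (GRCm38). They counted reads per gene with featureCounts 1.5.0 of Subread, per the submitters' processing notes, and the deposited values are raw counts without normalization. The annotation and strand setting of the counting are not given in the sources used here. The methods name a removal of genes under 300 bp and of 1 outlying 6-week library, which was not analysed here, and DESeq2 as the test.

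From the deposited counts, 13348 genes passed filterByExpr (groups by subset, minimum count 10). They were scaled by TMM and tested by quasi-likelihood F tests (edgeR, robust) with Benjamini-Hochberg adjustment over all of them. The common biological coefficient of variation was 0.931. The subset was the sole term between subsets and was kept beside age in the age and interaction models. Genes were called at a log2 fold change of size 1 to 10 and adjusted p below 0.01, and at an adjusted p below 0.05 for the complement lists, age and interaction. The standard error is the log2 fold change over the square root of F. The p-values and standard errors rest on the spread between these pools, with the variation of each gene drawn toward that of the other genes tested.

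Fits were run with edgeR 4.0.16, DESeq2 1.42.0 and limma 3.58.1 under R 4.3.3 and were tested on simulated data. Gene positions and exonic lengths came from GENCODE M21, to which 22749 symbols matched directly and 951 through a synonym, with 361 unmatched. log2 CPM for likeness used a prior count of 2. The members and lists were chosen with earlier results of these data known. Genes named were the members, *Lyve1* and *Alb*, in each list every gene that passed and up to 4 with the largest absolute log2 fold change, and the genes with the highest correlation with a member. Markers, *Tardbp*, *C3*, *C1qb*, *C2*, *C4a*, *C8a*, *C8g*, *C9*, *Hc*, *C1rb*, *C1s1*, *Megf10* and the genes called for age were named after their values were seen. The alternatives were DESeq2, its size factors in edgeR, total library size, 2 other filters, removal of genes under 300 bp, age as a covariate, a replicate block, 10-week libraries only, a looser threshold and each library left out. Removal of the 2 libraries with the most olfactory receptor genes counted was chosen after seeing the data.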

Additional observations from a re-analysis of the deposited data

Results flagged for a closer look

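The fitted difference in *Lyve1* between the subsets was smaller in the 10-week pools than in the single pair of 6-week pools. The interaction was -4.06 ± 0.58 in log2 units (SE, adjusted p = 0.0466 by edgeR). *Lyve1* was at 2352 CPM in Lyve-1+ and 1.43 CPM in Lyve-1- cells at 6 weeks, with 1 library each, and at 788 and 597 CPM against 6.66 and 7.43 CPM at 10 weeks. The 6-week Lyve-1- value rests on 17 counts, and the spread behind this test comes from the 10-week pools alone, so age and the variation of 1 pool cannot be told apart. The interaction passed in 5 of 6 alternative fits, with adjusted p between 6.54e-07 and 0.0552, the highest under scaling by total library size.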

How the results depend on the processing

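The log2 fold change of *Fcna* moved by less than the spread between pools in all 16 alternatives (4.82 to 6.47, and 4.96 to 6.47 with each library left out), and *Mbl2*, *Masp1* and *Colec10* kept their sign wherever they could be fitted. *Masp1* moved to -6.37 with the replicate block and -6.43 with age as a covariate, and *Colec10* to 10.53 without the 2 libraries with the most olfactory receptor genes counted. The filter of at least 10 counts in every library left no value for these 3 genes, and *Masp1* had none without those 2 libraries. A looser threshold does not apply to fold changes or to the complement lists, which used it already. Over all genes, the median log2 fold change shifted by -0.03 when scaled by DESeq2 size factors and by -0.07 when scaled by total library size.

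The number of genes called between subsets was 15, and became 159 with DESeq2, 188 without a filter, 32 with at least 10 counts in every library, 58 with age as a covariate, 84 at an adjusted p under 0.05 with no limit on the fold change, and 0 without the 2 libraries with the most olfactory receptor genes counted. It ran from 1, without Lyve-1- replicate 3, to 81, without Lyve-1+ replicate 2. The 3 complement and lectin genes became 6 with DESeq2, 7 without a filter, 5 with at least 10 counts, 6 with age as a covariate, 1 in the 10-week libraries alone and 1 without those 2 libraries, and 2 to 5 with each library left out. Genes called for age were 3, and 35 with DESeq2, 5 with total library size, 19 without a filter, 8 with at least 10 counts, 0 without the subset term and 2 to 35 with each library left out, the most without Lyve-1+ replicate 2. Interaction calls were 1, and 41 with DESeq2, 0 with total library size and 19 without a filter. The causes of these moves were not tested.

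Replicate numbers follow age, and libraries with the same number did not deviate together (correlations of -0.046, -0.002 and -0.147). With so few libraries these correlations cannot decide whether a number stands for the same mice, which the labels do not state. With the replicate block, 140 genes were called between subsets, 5 complement and lectin genes passed, and the log2 fold change of *Fcna* was 5.78. No library correlated best with its own number.

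Depth limits the 7 low members, since 3 counts correspond to 0.144 to 0.437 CPM.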
